A study of Homo sapiens with 2 samples.

Results

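Pre-mRNA splicing factors and related RNA-binding proteins were followed on 2 arrays of a pancreatic cancer cell line, one from cells given a MEK inhibitor and one from cells that were not. The genes are those whose symbol in the platform's probe annotation begins with SRSF, HNRNP, SF3, SNRP, SNRNP, PRPF, LSM, RBM, CPSF, CSTF, CELF or ELAVL, with symbols containing -AS left out. This rule found 105 genes among 13763 named genes, read by 109 probe sets among 53617. The rule reads symbols only, but it was chosen with earlier results of these data known. Both cultures were S2-013 cells, a subline of the SUIT-2 pancreatic cancer line. In both, HOXB7 had been knocked down and a rescue plasmid then supplied HOXB7 again, so the untreated culture carries the knockdown and the plasmid too. The sources used here do not give the inhibitor's name, its dose or how long it was applied. Cells are from 1 line, with 1 array for each condition, so no value has a replicate error and no test was run.

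Splicing removes introns in the spliceosome, which is built from small nuclear ribonucleoproteins (snRNPs). U1 recognises the 5′ splice site, U2 the branch point, and the U4/U6 and U5 snRNPs then join as the tri-snRNP. A ring of Sm proteins coats most of the small nuclear RNAs. SR proteins mostly bind exons and promote their inclusion, hnRNP proteins package nascent RNA and often act in the opposite sense, and the RBM name covers many unrelated proteins that share an RNA-binding domain. MEK phosphorylates ERK, and signalling through ERK is known to reach splicing through kinases and RNA-binding proteins as well as through transcription.

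The rule did not reach all of these families. The prefixes SF3, CELF and ELAVL found 0 genes in the annotation, so SF3B1, ELAVL1 and their relatives are not analysed here. CPSF and CSTF each found 1, CPSF4L, a relative of a cleavage factor subunit, and the divergent non-coding transcript CSTF3-DT, and both were below the floor. LSM found LSM12 and LSMEM1, a membrane protein that only shares the letters. Of the rest, 36 genes were RBM, 25 HNRNP, 12 SNRP, 7 SNRNP, 11 SRSF and 10 PRPF. The set includes 6 transcribed pseudogenes.

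Values are log2 probe set values. A gene was counted as above the floor if at least 1 array read 4.78 or more, which is the median brightness (mean of both arrays) of all named genes. The floor was passed by 83 of the 105 members and by 7164 of all named genes. No detection call was used, so a value under the floor is only a dim signal. Probe sets of the same gene give the only error these arrays hold. Over 443 such pairs from 145 genes the differences disagreed by a median of 0.16, and 7.45% of pairs disagreed by 1.5-fold or more. Genes with many probe sets count more in this, and only 1 pair is of a member. Cultures can differ by more than this. In bulk RNA, fewer cells of a kind and less RNA per cell cannot be told apart. HOXB7 read 5.84 without and 5.85 with the inhibitor, and DUSP6, an ERK phosphatase gene that ERK itself induces, read 6.53 without and 5.27 with the inhibitor. Epithelial markers were present, with EPCAM at 10.46 and KRT18 at 11.58 without the inhibitor, and of 3 named neuron markers only SYP (5.26) passed the floor. Among markers of other cell types it was also passed by DES (5.92) of 3 fibroblast markers, ESAM (5.72) and CLDN5 of 5 endothelial markers, and CD68 (8.95) and TYROBP (4.85), the 2 leukocyte markers named. All 5 of these read lower with the inhibitor, from -0.06 to -0.63, where 46.1% of all genes above the floor were lower. DES read -0.54, but -0.38 with averaged probe sets, and TYROBP fell under the floor with the inhibitor (4.46). Below the floor, PECAM1 (0.65), LUM (0.25) and VWF (0.10) were higher, and KDR (-0.03) and DCN (-0.01) slightly lower. The part of these markers in the results was not tested.

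Most splicing genes had nearly the same level with and without the inhibitor. None of the 83 members above the floor differed by 2-fold, against 0.628% of all genes above the floor that were at least 2-fold higher and 1.05% that were at least 2-fold lower. At 1.5-fold, 2 members were higher, SNRPC and the pseudogene HNRNPA1P33, beside 4.62% of all genes. At the same threshold 0 members were lower, beside 3.60% of all genes. The difference lay within 0.3 of 0 on the log2 scale for 71 members (85.5%), beside 69.1% of all genes. The standard deviation of the log2 differences between genes was 0.22 over the members and 0.35 over all genes above the floor.

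**Figure D1:**
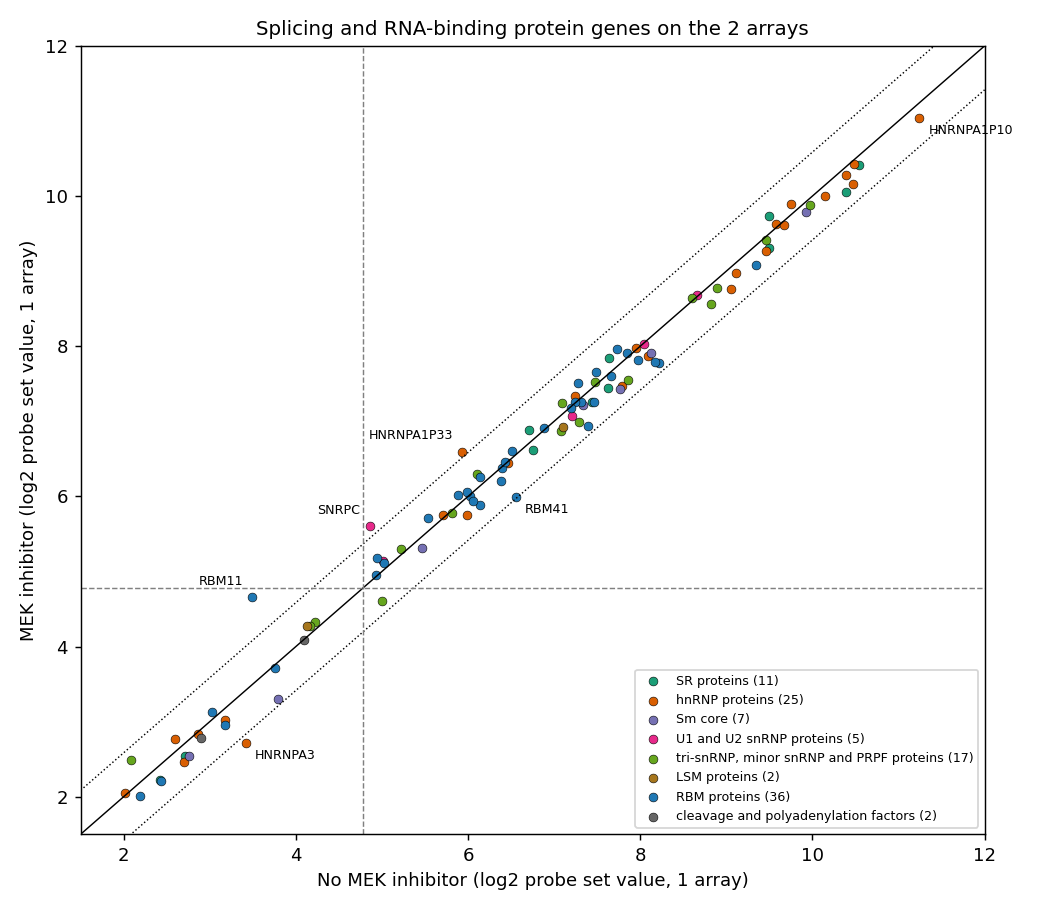
Each of the 105 members is a point, with its log2 value without the inhibitor on the horizontal axis and with it on the vertical axis (1 array each), coloured by family. The solid line marks equal values, dotted lines a 1.5-fold difference and dashed lines the floor of 4.78; SNRPC and HNRNPA1P33 lie outside the dotted band above the floor, and RBM11 and HNRNPA3 lie outside it below the floor.

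Small differences leaned towards lower values with the inhibitor. Of the 83 members, 51 were lower (61.4%), beside 46.1% of all genes above the floor, and the median log2 difference was -0.05 beside 0.03. The lean was read in the bright and middle classes of brightness and not in the dim one, where brightness is the signal of a probe set and does not rank transcripts of different genes. In the brightest of 3 equal classes of all genes above the floor, 37 of 52 members were lower (71.2%) with a median of -0.12, while 49.2% of all genes in that class were lower with a median of 0.01. In the middle class 12 of 21 members were lower (57.1%, beside 43.9% of all genes), with a median of -0.01 beside 0.04. In the dim class 2 of 10 were lower (beside 45.2% of all genes), with a median of 0.08 beside 0.04. Lower members numbered 49 of 81 with averaged probe sets. Of 83, they numbered 55 after the median difference of all genes was subtracted and 56 after a loess trend on brightness was. Both subtractions also shift all genes, whose share lower was not recomputed, so these counts show no stronger lean. The median over all 83 members was -0.08 after the loess trend was subtracted and -0.11 over the 61 members above the 75th percentile of brightness. Whether these differences would recur in a second pair of cultures was not tested.

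**Figure D2:**
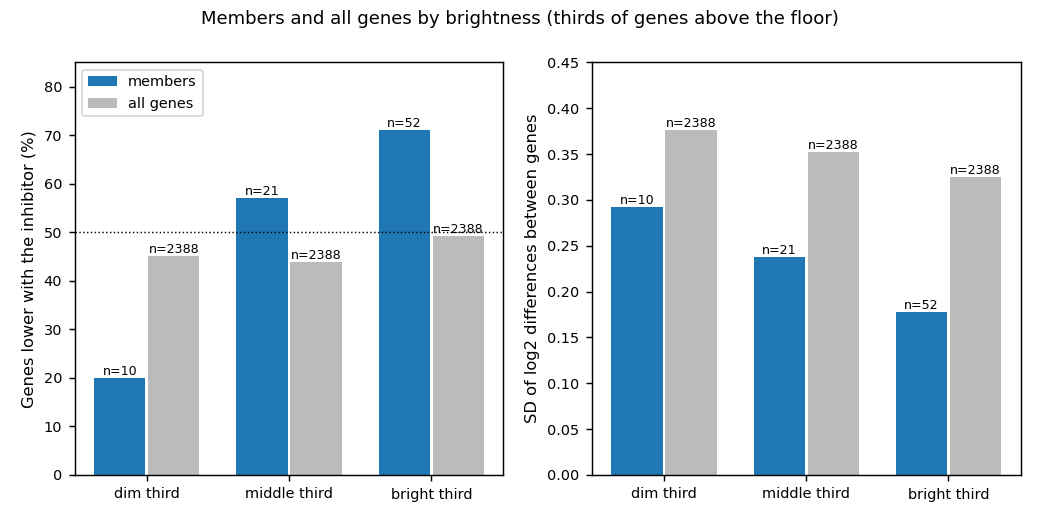
The left panel gives the percentage of genes that read lower with the inhibitor, and the right panel the standard deviation of the log2 differences between genes, for members (blue) and all genes (grey) in 3 equal classes of brightness, with the number of genes above each bar. Members were lower in 71.2% of the bright class against 49.2% of all genes, and their differences spread less in each class.

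The start of 4 picked genes is shown. Each holds the letters that are marked in it, so the 4 do not show how common such letters are. SNRPC is the highest member above the floor. RBM28 is among the lowest, although RBM41 was lower (-0.56). SRSF3 is the highest SR protein gene, and PPIH, which is no member, is the lowest gene of the other spliceosome proteins. Each line holds the 250 bases before the annotated transcription start, 5′ to 3′ on the gene's strand, from RefSeq on GRCh38.p14. Capitals mark CCGGAAG or its reverse complement, the core that ETS factors bind, in SNRPC, RBM28 and PPIH. In SRSF3 they mark TGACGT or its reverse complement, one arm of the element that CREB binds. Both were searched on both strands, and a copy of one cannot overlap a copy of the other.
SNRPC (chr6:34757255-34757504, plus strand): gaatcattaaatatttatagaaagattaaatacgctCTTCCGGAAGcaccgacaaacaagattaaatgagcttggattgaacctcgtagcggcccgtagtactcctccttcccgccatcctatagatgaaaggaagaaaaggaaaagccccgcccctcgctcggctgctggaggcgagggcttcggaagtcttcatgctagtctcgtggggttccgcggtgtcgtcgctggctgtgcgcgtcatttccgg
RBM28 (chr7:128343909-128344158, minus strand): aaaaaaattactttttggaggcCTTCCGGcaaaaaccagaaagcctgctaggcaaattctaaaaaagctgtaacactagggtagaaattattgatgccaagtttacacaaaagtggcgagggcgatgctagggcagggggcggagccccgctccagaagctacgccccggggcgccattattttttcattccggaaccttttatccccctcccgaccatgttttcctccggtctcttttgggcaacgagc
SRSF3 (chr6:36594112-36594361, plus strand): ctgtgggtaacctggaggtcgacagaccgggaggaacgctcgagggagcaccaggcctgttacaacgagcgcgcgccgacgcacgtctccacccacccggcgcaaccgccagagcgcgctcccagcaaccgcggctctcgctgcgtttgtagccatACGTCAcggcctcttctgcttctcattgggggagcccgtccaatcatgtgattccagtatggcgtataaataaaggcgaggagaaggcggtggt
PPIH (chr1:42658173-42658422, plus strand): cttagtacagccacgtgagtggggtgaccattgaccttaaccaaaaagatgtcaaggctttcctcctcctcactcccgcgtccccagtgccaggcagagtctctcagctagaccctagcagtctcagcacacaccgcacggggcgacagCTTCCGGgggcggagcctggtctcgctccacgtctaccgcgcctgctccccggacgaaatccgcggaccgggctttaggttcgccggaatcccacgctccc

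In SNRPC the ETS letters occur on both strands in an overlapping palindrome that begins 214 bases before the start. In RBM28 they begin 228 bases before it and in PPIH 101 bases before it, and each of these also holds a match just after the start, which is not printed. The SRSF3 match begins 94 bases before the start. Promoter windows of 300 bases (250 before and 50 after the start) were found for 88 of the 105 members. Of the 72 above the floor, 21 (29.2%) held CCGGAAG in any of their windows, beside 23.1% of named genes above the floor. The share was 12.2% of all 27305 genes with a window, and 10.3% of the 35116 single windows. The 21 had a median log2 difference of -0.05 and the other 51 of -0.06. TGACGT was held by 15 of the 72 (20.8%), beside 14.2% of named genes above the floor and 9.64% of all genes with a window. It was held by 7.98% of single windows. The medians of the 72 were -0.11 with it and -0.05 without it. Among these picked genes the ETS letters stood before both the highest member above the floor and one of the lowest. Members above the floor with and without them had nearly the same median. A match is a run of letters, not a site shown to be bound.

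SR proteins, which hold serine and arginine repeats that kinases phosphorylate, divided by gene. Above the floor, 6 of 9 were lower and 3 higher, no difference reached 1.5-fold, and the median was -0.14. Of all genes above the floor 46.1% were lower, and of those in the bright class 49.2%. SRSF2, which acts in exon inclusion and transcript elongation, had the lowest difference, with 10.39 without and 10.05 with the inhibitor. SRSF1, a classic regulator of 5′ splice site choice and the brightest SR gene, read 10.54 without and 10.41 with the inhibitor. SRSF5 and SRSF6 were lower by nearly the same amount (-0.17 and -0.19), as were SRSF8 (-0.14) and SRSF11 (-0.18). The smaller, closely related SRSF3 and SRSF7, which also couple splicing to mRNA export, were both higher: SRSF3 read 9.50 without and 9.73 with the inhibitor, and SRSF7 read 7.63 without and 7.84 with the inhibitor. SRSF4 was the remaining higher gene (6.71 without and 6.89 with the inhibitor). SRSF12 and the pseudogene SRSF3P2 were below the floor. Of the kinases and importin that act on SR proteins, 8 of 9 named were above the floor, 5 of them lower, with a median of -0.09. CLK2 (-0.44) and SRPK1 (-0.34), both SR protein kinases, had the lowest differences, and their relatives CLK3 (0.28) and CLK4 (0.24) the highest.

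The hnRNP genes were the brightest family. Of the 19 that passed the floor, 13 read lower, and the 19 had a median difference of -0.11. For comparison, 46.1% of all genes that passed the floor read lower, and 49.2% of those in the bright class. The 19 include the pseudogenes HNRNPA1P10 (lower) and HNRNPA1P33 (higher), whose values are uncertain. The lower end was held by 3 abundant packaging proteins within a narrow range. HNRNPA1 read 7.79 without and 7.48 with the inhibitor, HNRNPM 10.47 without and 10.16 with the inhibitor, and HNRNPA2B1 9.06 without and 8.76 with the inhibitor. HNRNPLL, known for its part in alternative splicing in lymphocytes, read 5.99 without and 5.75 with the inhibitor. HNRNPR (-0.22), HNRNPAB (-0.19), HNRNPK (-0.14), HNRNPL (-0.14) and the scaffold gene HNRNPU (-0.11) followed. HNRNPUL1 (-0.05), HNRNPH3 (-0.05), HNRNPC (-0.01), HNRNPA0 (0.02), HNRNPUL2 (0.03) and HNRNPF (0.05) lay close to 0. HNRNPH1 (0.10) and HNRNPDL (0.15) were somewhat higher.

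HNRNPA1 has many processed copies in the genome, and its probe sets may share sequence with them. The copy HNRNPA1P33 had the highest difference of the family (5.93 without and 6.59 with the inhibitor), opposite in direction to HNRNPA1. The copy HNRNPA1P10 was the brightest of all members, and its 2 probe sets read -0.21 and 0.03. Which transcripts these probe sets read is unknown, so the values of HNRNPA1, HNRNPA1P10 and HNRNPA1P33 are uncertain. HNRNPA3 was listed at only 3.42 without and 2.72 with the inhibitor, below the floor, so its difference of -0.71 rests on dim signals.

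**Figure D3:**
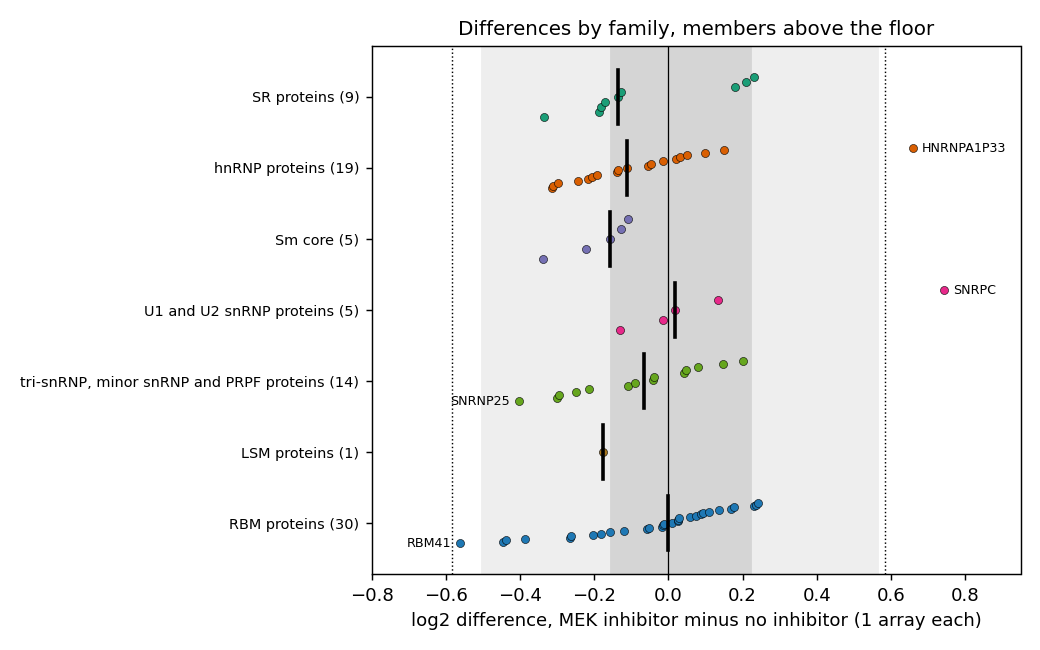
Each point is a member above the floor, placed by its log2 difference (MEK inhibitor minus no inhibitor, 1 array each) in a row for its family, with black bars at family medians. Dark and light grey bands hold the middle 50% and 90% of all genes above the floor, and dotted lines mark 1.5-fold; SNRPC at 0.74 and HNRNPA1P33 at 0.66 are the only points past them.

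Genes of the Sm ring were all lower, by small amounts, where 46.1% of all genes above the floor were lower. The 5 above the floor, SNRPD1 (-0.34), SNRPD2 (-0.22), SNRPE (-0.16), SNRPD3 (-0.13) and SNRPB (-0.11), had a median of -0.16. SNRPD1 read 7.77 without and 7.43 with the inhibitor, and SNRPD3, the brightest, 9.92 without and 9.79 with the inhibitor. The second probe set of SNRPE, below the floor, read 0.09. SNRPF (3.80 without and 3.30 with the inhibitor) and SNRPG (2.76 without and 2.54 with the inhibitor) were below the floor, although every cell uses both proteins. Of 20 listed genes that load Sm rings onto small nuclear RNA or carry snRNPs to the nucleus, 12 were above the floor, 5 of them lower, with a median of 0.06. The lower ones included WDR77, which with PRMT5 methylates Sm proteins (8.23 without and 7.69 with the inhibitor), the SMN complex gene GEMIN4 (7.23 without and 6.71 with the inhibitor) and the cap hypermethylase gene TGS1 (-0.39). PRMT5 itself read 0.14. The snRNP import adaptor gene SNUPN was the highest (6.68 without and 7.07 with the inhibitor).

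Proteins particular to the U1 and U2 snRNPs included the highest member above the floor. SNRPC, the zinc finger protein that steadies U1 pairing with the 5′ splice site, read 4.86 without and 5.60 with the inhibitor, which is 1.68-fold higher from a value just above the floor. The other U1 proteins did not share this: SNRNP70 read 8.05 without and 8.03 with the inhibitor, and SNRPA read 8.66 without and 8.68 with the inhibitor. LUC7L, a U1-associated protein that helps choose 5′ splice sites, had the lowest difference of any gene in the list of splicing regulators outside the prefixes (6.58 without and 5.68 with the inhibitor). Its relatives LUC7L3 (-0.35) and LUC7L2 (0.18) lay on opposite sides of 0. For U2, SNRPA1 read 0.13 and SNRPB2 -0.13. Both subunits of U2AF, which marks the 3′ splice site before U2 arrives, were lower: U2AF1 read 7.20 without and 6.76 with the inhibitor, and U2AF2 read 10.22 without and 9.94 with the inhibitor. The U2-associated genes U2SURP (-0.32), DDX46 (-0.28), PHF5A (-0.19) and CHERP (-0.18) were lower too, and RBM17 read 0.03. The median of the 5 SNRP and SNRNP genes of U1 and U2 was 0.02, and -0.0086 after the median difference of all genes was subtracted, so it has no settled sign.

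Among the tri-snRNP, PRPF and minor snRNP genes, 9 of 14 above the floor were lower, beside 46.1% of all genes above the floor. The median difference was -0.07. Of the 5 spliceosome parts compared (U1, U2, U4/U6, U5 and the PRP19 complex, each with listed partners), U4/U6 had the lowest median, -0.27 over 4 genes. These parts were listed after the values were seen. PRPF3 read 7.29 without and 6.99 with the inhibitor, and PRPF4 read 8.82 without and 8.57 with the inhibitor. PPIH, the cyclophilin that binds this pair, read 6.50 without and 5.73 with the inhibitor, which is lower by more than 1.5-fold. PRPF31, which binds the U4 RNA beside them, was higher (7.09 without and 7.24 with the inhibitor). In the U5 snRNP the large scaffold PRPF8 (-0.09), the helicase SNRNP200 (-0.11) and the GTPase EFTUD2 (-0.09) had closely similar differences. SNRNP40 (-0.21), DDX23 (-0.25) and TXNL4A (-0.31) were lower by more, and PRPF6, which bridges U5 and U4/U6, read 0.04. PRPF19, the ubiquitin ligase that gives the activating PRP19 complex its name, read 7.86 without and 7.56 with the inhibitor, while its partners PLRG1 (-0.14), CWC15 (-0.13), CDC5L (-0.02) and BCAS2 (0.02) were nearer 0. The remaining PRPF genes were PRPF38A (-0.04), PRPF18 (0.08) and the U1-associated PRPF39 (0.20). In the minor spliceosome, which removes a rare class of introns, SNRNP25 read 5.01 without and 4.60 with the inhibitor, the second of which is under the floor, and SNRNP48 read -0.04. SNRNP27 read 0.05 in its bright probe set and 0.30 in a dim one.

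**Figure D4:**
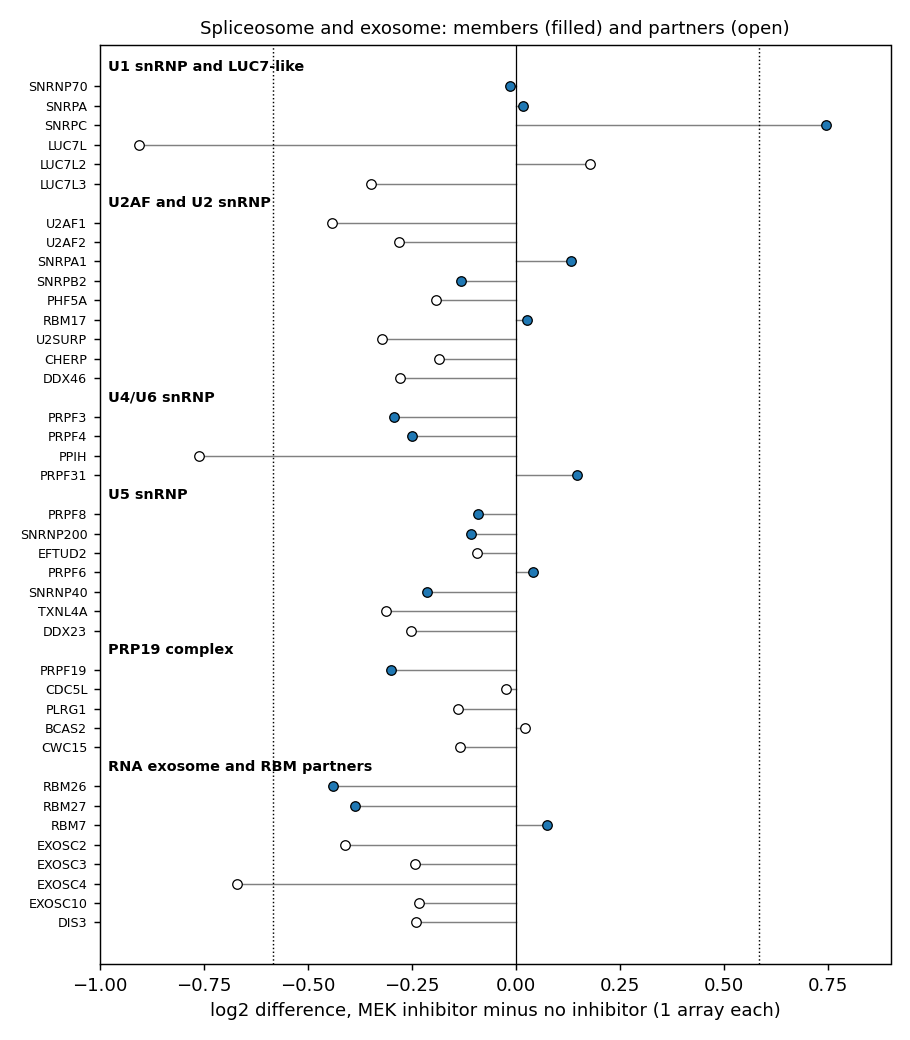
Log2 differences (MEK inhibitor minus no inhibitor, 1 array each) of members (filled) and listed partner genes (open) are grouped by snRNP or complex, with dotted lines at 1.5-fold. SNRPC at 0.74 is the one gene past the upper line, and LUC7L at -0.91, PPIH at -0.76 and EXOSC4 at -0.67 lie past the lower one.

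The RBM genes were evenly divided, with 15 of 30 above the floor lower and 15 higher, beside 46.1% of all genes lower. Their median was -0.00023, and 0.010 with averaged probe sets. Genes placed in splicing, a grouping made after the values were seen, were mostly near 0 or slightly higher. Of these, 5 of 13 were lower, with a median of 0.02. RBM41, which has been linked to the minor spliceosome, had the lowest difference of all members above the floor (6.56 without and 5.997 with the inhibitor, a difference of -0.56), just inside 1.5-fold. RBM8A, the Y14 subunit of the exon junction complex, was at the other end (7.27 without and 7.52 with the inhibitor), with RBM39, a U2AF-related factor, beside it (7.73 without and 7.97 with the inhibitor). Its close relative RBM23 read 0.17. The tumour suppressor-like regulators RBM5 (-0.02), RBM6 (0.09) and RBM10 (-0.06) were near 0, as were RBM22 (0.06), RBM42 (0.01) and RBM48 (0.02). RBM25, a U1-associated factor, read -0.16 and RBM4B -0.12.

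Apart from RBM41, the lowest RBM values were those of genes placed in roles outside splicing. These roles were assigned after the values were seen, so the split only describes them. RBM26 and RBM27, paralogs that work with the nuclear exosome in RNA decay, were lower by similar amounts: RBM26 read 8.21 without and 7.77 with the inhibitor, and RBM27 read 8.18 without and 7.79 with the inhibitor. The named exosome genes, grouped with them after the values were seen, also read lower. EXOSC4 was at -0.67, EXOSC2 at -0.41, EXOSC3 at -0.24, DIS3 at -0.24 and EXOSC10 at -0.23. Of all genes above the floor, 46.1% were lower. RBM7, a subunit of another exosome adaptor, read 0.07. All 3 nucleolar RBM genes, which act in ribosome assembly, were lower: RBM28 read 7.39 without and 6.94 with the inhibitor, RBM19 6.14 without and 5.88 with the inhibitor and RBM34 7.66 without and 7.61 with the inhibitor. RBM15 (-0.18) and RBM15B (-0.01), adaptors of the complex that methylates adenosine in RNA, were lower by less. Among the other RBM genes RBM12 (-0.27) and RBM14 (-0.20) were lower. RBM43 (0.23), RBM38 (0.18), RBM47 (0.14), RBM33 (0.11), RBM45 (0.09) and RBM18 (0.03) were higher, and RBM12B read -0.01. RBM38 is known to control the stability of particular mRNAs, and RBM47 is a cofactor of an RNA editing enzyme. The tissue-restricted RBM11, RBM20, RBM24, RBM44 and RBM46 were all below the floor. Of these RBM11, a splicing regulator of brain and testis, had by far the largest difference of any member (3.49 without and 4.65 with the inhibitor, a difference of 1.16), but both values are dim. LSM12 read 7.10 without and 6.92 with the inhibitor. The 22 members below the floor read between 2.01 (RBM46) and 4.65 (RBM11) on either array. Besides those named above they were RBM4, PRPF40B, SNRNP35, LSMEM1, HNRNPA1L2, HNRNPCL1, HNRNPCL2 and the pseudogenes HNRNPA3P1, HNRNPKP3 and SNRPD2P2.

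Paralogs were compared because they bind similar RNA. Of 20 listed pairs, both genes were above the floor in 17, and in 11 of these both differences had the same sign. Since most members were lower and some pairs share a gene (SRSF6, RBM5 or HNRNPH1), nothing about paralogs is read from that count. The closest pairs were HNRNPA1 with HNRNPA2B1, SRSF5 with SRSF6, SRSF3 with SRSF7, RBM5 with RBM10, HNRNPF with HNRNPH1, and RBM26 with RBM27. The widest gap was that of SRSF4 (0.18) and SRSF6 (-0.19), followed by HNRNPDL (0.15) and HNRNPAB (-0.19). RBM12 with RBM12B and SRSF2 with SRSF8 had the next gaps, with the same sign in each pair.

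**Figure D5:**
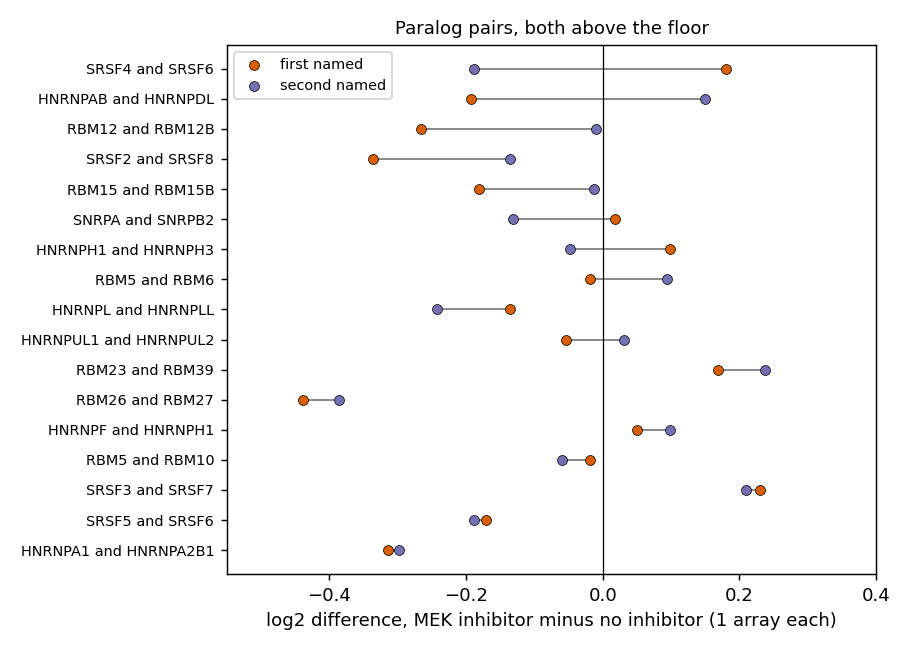
Each row joins the log2 differences (MEK inhibitor minus no inhibitor, 1 array each) of 2 paralogs that were both above the floor, ordered from the widest gap at the top to the narrowest. SRSF4 and SRSF6 lie 0.37 apart on opposite sides of 0, and HNRNPA1 and HNRNPA2B1 lie 0.02 apart.

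Genes of the same processes that the prefixes do not reach differed in spread from list to list. The standard deviation between genes was 0.20 for other spliceosome proteins and 0.13 for partners in 3′ end processing. It was 0.26 for splicing regulators, 0.32 for snRNP assembly genes and 0.40 for genes of deadenylation and mRNA decay. Counts of lower genes in these lists stand beside 46.1% of all genes above the floor and 49.2% of those in the bright class. Of 42 other spliceosome proteins above the floor, 32 were lower and 10 higher, with a median of -0.11. PPIH was the only one past 1.5-fold. At the upper end were BUD13 (0.38), of the retention and splicing complex, and USP39 (0.32), of the tri-snRNP. Splicing regulators outside the prefixes were evenly divided, with 16 of 33 lower and a median of 0.02. This median became -0.0039 after subtracting the median difference of all genes and -0.023 after the loess trend. Its sign is therefore not settled. LUC7L and SCAF4, an RNA polymerase tail-binding protein (-0.42), were lowest, and ESRP2, an epithelial splicing regulator (7.45 without and 7.79 with the inhibitor), was highest. Its paralog ESRP1 read 0.05. Of the 6 exon junction and nonsense-mediated decay genes above the floor other than RBM8A, 5 were lower, with a median of -0.17, among them the export adaptor gene ALYREF (-0.27), ACIN1 (-0.24) and the decay helicase gene UPF1 (-0.22). CASC3 read 0.19. Of 15 partners in 3′ end processing 11 were lower, none by 1.5-fold, with a median of -0.09, and the poly(A) polymerase gene PAPOLA was lowest (-0.26). The named genes of poly(A) tail shortening, mRNA decay and their control had a median of -0.03, with 11 of 20 above the floor lower. CPEB2, a cytoplasmic polyadenylation element-binding protein, was the one gene in these lists more than 2-fold higher (5.75 without and 7.12 with the inhibitor), while CPEB1, CPEB3 and CPEB4 were below the floor. PAN2, a subunit of a poly(A) nuclease, read 6.14 without and 5.64 with the inhibitor.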

How the data were processed

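Total RNA of 2 cultures was measured on Affymetrix arrays after amplification to biotinylated sense-strand cDNA, per the labels' protocols. The authors deposited 1 log2 value per probe set and array. The log2 scale is inferred from the values, and every fold assumes it. Affymetrix Expression Console 1.3 was used, per the submitters' processing notes; settings for background, summarisation and normalization: not given in the sources used here. Array quantiles were nearly equal, so values were used as deposited, and a difference in total RNA output would not be seen. Of the probe sets, 16098 had 1 gene symbol (platform annotation), none had several, and the others are unnamed here; 1287 of small RNA (MIR, SCARNA) were kept apart. Each gene used its probe set with the highest mean. Pairs of probe sets for the error estimate leave out genes with identical copies.

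Members, families and related lists were chosen with earlier results of these data known, and the paralog pairs, complexes and RBM roles after the values were seen. Named genes were all members past 1.5-fold, the 3 largest differences and 2 brightest genes of each family, up to 4 genes of each related list, and, beyond that rule, the other members and complex partners given by value. Planned comparisons of protein sequences were not made, since no protein table was used here, and no gene with the prefix RNU or RNVU was named. Counting of differences was tested on simulated data. Computations used Python 3.11.15, numpy 2.4.6, pandas 2.3.3 and statsmodels 0.14.6.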

Additional observations from a re-analysis of the deposited data

How the results depend on the processing

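No paired analysis was possible because there was a single array for each condition, and no array could be left out. Of 77 recomputed counts and medians for the members and families, 67 stayed within the limits set (1.5 times a count, 0.16 and the same sign for a median). The limit of 0.16 is wider than most of the medians themselves, so it shows little about their size. The members' median of -0.054 became -0.083 after subtracting the loess trend and -0.11 with the 75th percentile filter. That of the tri-snRNP, minor snRNP and PRPF genes (-0.066) became -0.0999 with that filter, -0.039 without a filter and -0.041 without its member of largest difference. The RBM median (-0.00023) ranged from -0.051 with the 75th percentile filter to 0.010. Members at least 1.5-fold higher numbered 1 with the 75th percentile filter and 1 without LSMEM1, pseudogenes and other non-coding symbols. Members at least 1.5-fold lower numbered 1 after subtracting the median difference, 1 after subtracting the loess trend and 1 without the filter. Without the filter 1 member was at least 2-fold higher (RBM11). The RBM median was 0.010 with averaged probe sets and 0.010 without its member of largest difference, and the U1 and U2 median -0.0086 after subtracting the median difference and -0.015 with the 75th percentile filter. The member past 1.5-fold lower was RBM41 under both scalings, at -0.59 after subtracting the median difference and -0.61 after the loess trend, and HNRNPA3 without the filter. The member left past 1.5-fold higher was HNRNPA1P33 with the 75th percentile filter of 6.45, which SNRPC did not pass. It was SNRPC without pseudogenes. The RBM member of largest difference, left out for that median, was RBM41. The cause of the remaining shifts was not tested. Chosen after seeing the data, a comparison of members above the 75th percentile gave an SD of 0.21, beside 0.22 for those above the floor. Signal over background is unknown, which limits every dim value.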

Other observations

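Antisense transcripts of these genes, which the rule leaves out, were all below the floor. RBM26-AS1 was read by 2 probe sets, with differences of 0.33 and 0.07, while RBM26 itself read -0.44. The others were CELF2-AS2 (0.18), RBM15-AS1 (0.13), RBM12B-AS1 (0.02) and RBM5-AS1 (-0.01).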
